A study of Populus sp. cv. 'Okanese' with 18 samples.

Results

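The genes described here are 200 of the 31033 genes counted in leaves of a hybrid poplar, selected on their read counts because their level differed between the driest and the wettest soil in the late morning and hardly at all in the early evening. One set of 100 was higher on the driest soil in the morning (LM30-high genes), and another set of 100 was lower (LM30-low genes). The trees were Populus × 'Okanese', raised from cuttings in a greenhouse and held at 30, 50 or 80 % SWCg, the gravimetric soil water content as a share of field capacity. Leaves that had developed during the treatment were harvested in early evening (EE, 16 h) and late morning (LM, 10 h). The 6 groups EE30, EE50, EE80, LM30, LM50 and LM80 are named by time and water level and held 3 libraries each (A, B and C). All trees belonged to 1 hybrid, and 80 % SWCg served as the reference level of water. The sources used here do not say whether the 3 libraries of a group came from separate trees, so p-values measure only the spread between these libraries.

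A leaf that runs short of water closes its stomata, and abscisic acid made in and around the vascular tissue carries much of the signal that changes transcription. Leaf water status also follows the day, since transpiration draws the leaf down while the light is on and the circadian clock opens many genes to stress signals at some hours and closes them at others. A contrast of 30 against 80 % SWCg can therefore hold different genes in the morning and in the evening, and this is the question that the harvest at both times addressed. The files give a gene by its P. trichocarpa v4.1 identifier, with no name or function, so genes are described here by identifier (without the version ending), position and level. Fewer cells of a type and less RNA per cell cannot be told apart in whole leaves.

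Members were chosen by 5 steps on x = log2(CPM + 1), where CPM is a gene's count scaled to a total of 1000000 by the column sum of its library. Of 29198 genes with at least 1 count, 15666 had a mean of 5 to 512 CPM and 15030 of these also differed by less than 2 in mean x between EE and LM. The difference b of EE30 minus EE80 was under 0.1 in size for 6620 of them. In 1032 of these the 3 LM30 values and the 3 LM80 values did not overlap, with 793 higher and 239 lower in LM30 by this scaling. These were ranked by a, the mean x of LM30 minus that of LM80, and the 100 highest and the 100 lowest were taken. All 200 passed the expression filter of the tests below, and the lowest count of any member in any library was 25. Since the rule used LM30, LM80, EE30 and EE80, the values of those groups describe the choice and are given without a test.

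**Figure D1:**
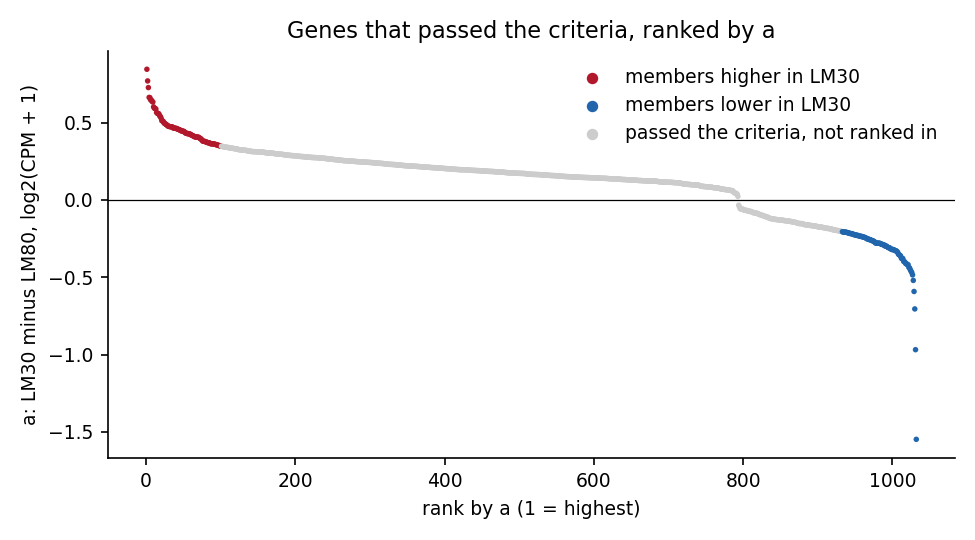
The 1032 genes that met the criteria are drawn as points in order of a (horizontal axis, rank; vertical axis, a in log2(CPM + 1)). Red points are the 100 LM30-high genes, blue points are the 100 LM30-low genes, and the limits lie within a continuous slope at 0.35 and −0.20, with a few LM30-low genes far below the rest.

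Total counts were 17348563 to 48110546 per library. LM30 B, LM80 A and EE30 C, all used by the rule, stood apart from the other libraries of their groups. Chi-square per degree of freedom over genes was 23.4 and 23.0 for LM30 B against A and C, and 5.18 for A against C. The same measure was 37.9 and 38.1 for LM80 A against B and C, and 11.18 for B against C, and it was 23.2 and 29.1 for EE30 C against A and B, and 8.09 for A against B. Applied without LM30 B, LM80 A or EE30 C, the rule kept 112, 86 or 122 of the 200 members. The file names in the header of the count table carry 1 number for all EE libraries and another for all LM libraries. The sources used here do not say what it marks, and its part cannot be told apart from that of the time of day.

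LM30-high genes had a from 0.35 to 0.85 with a median of 0.44, and their CPM in LM30 was 1.29 to 1.89 times that in LM80, with a median of 1.41. LM30-low genes had a from −1.55 to −0.20 with a median of −0.28, and the ratio of LM30 to LM80 was 0.300 to 0.865 with a median of 0.810. The morning differences were thus mostly modest, and the groups were often separated by little. The gap between the nearest LM30 and LM80 values had a median of 0.12 in LM30-high genes and 0.08 in LM30-low genes, and it was under 0.05 in 17 and 31 genes of these sets. LM30-low genes were the more abundant set, with a median of 25.4 CPM over all libraries against 15.9 CPM for LM30-high genes. At the edge of the choice, Potri.011G125200 and Potri.012G101600 were the last LM30-high genes taken (a = 0.35 for each), and Potri.007G009200 was the first left out (0.35). Potri.005G156100 (−0.21) and Potri.003G075700 (−0.20) were the last LM30-low genes, and Potri.018G023600 (−0.20) was the first left out. The edge has no step in a on either side.

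The 5 LM30-high genes with the highest a did not share a profile over the day. Potri.006G057900 (chromosome 6, 4098017 to 4099969) had 1.62 to 5.45 CPM over the EE libraries. In LM30 A, B and C it had 11.7, 17.1 and 10.5 CPM, with 9.51, 14.3 and 10.5 CPM in LM50 and 8.43, 8.44 and 4.12 CPM in LM80. Its morning level was above every evening value in 8 of the LM libraries and lay within the evening range in LM80 C, and LM50 overlapped LM30. Potri.010G095200 (chromosome 10, 11915870 to 11919429) had 1.65 to 3.77 CPM in EE libraries. It had 8.88, 9.68 and 10.8 CPM in LM30, 4.99, 6.92 and 7.41 CPM in LM50, and 3.53, 6.03 and 6.90 CPM in LM80. LM50 and LM80 overlapped, and all 3 LM30 libraries stood above both.

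Potri.012G124100 (chromosome 12, 14097699 to 14101372) ran the other way over the day, with 6.0 to 10.0 CPM in the EE libraries. Its LM30 values were 2.89, 2.80 and 3.62 CPM, its LM50 values 2.02, 1.99 and 1.79 CPM, and its LM80 values 2.48, 1.21 and 1.24 CPM. All morning values were thus below all evening values, and LM30 was the morning group nearest to them. Potri.014G146800 (chromosome 14, 10070679 to 10073304) had 5.35 to 11.5 CPM in EE libraries. In the morning it had 7.0, 13.3 and 9.29 CPM in LM30, 4.24, 5.21 and 7.84 CPM in LM50, and 4.12, 6.07 and 6.15 CPM in LM80. Potri.016G092700 (chromosome 16, 7731200 to 7743492) had 12.6 to 17.1 CPM in EE libraries, and in the morning 12.03, 20.7 and 12.1 CPM in LM30, 9.75, 10.085 and 9.29 CPM in LM50, and 10.5, 8.27 and 7.74 CPM in LM80. In both genes 1 library, LM30 B, was the highest of the morning, and without it a was 0.51 in Potri.014G146800 and 0.42 in Potri.016G092700, against 0.73 and 0.66 with it.

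Among LM30-low genes, Potri.010G053400 (chromosome 10, 8481987 to 8483460) had the lowest a, and LM80 C carried much of it. It had 41.9 to 72.9 CPM in the EE libraries. The LM30 libraries A, B and C held 137, 68.1 and 90.4 CPM, the LM50 libraries 243, 236 and 181 CPM, and the LM80 libraries 141, 263 and 579 CPM. LM30 A and LM80 A differed by only 137 against 141 CPM, and LM30 was above every evening value except EE50 C at 72.9 CPM, which exceeded LM30 B. Potri.006G226800 (chromosome 6, 23113081 to 23117410) had 14.9 to 105 CPM in EE libraries, with replicate A the highest in each EE group. Its LM30 values were close together at 84.4, 89.2 and 94.3 CPM, followed by 92.3, 162 and 140 CPM in LM50 and 116, 155 and 299 CPM in LM80. Again LM80 C was the highest of all 18 libraries.

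Potri.016G060100 (chromosome 16, 4108981 to 4111028) had 16.0 to 33.8 CPM in EE libraries. It had 50.7, 55.3 and 62.5 CPM in LM30, 61.9, 92.0 and 70.6 CPM in LM50 and 69.6, 102 and 109 CPM in LM80. Every morning value was above every evening value, and LM50 overlapped both LM30 and LM80. Potri.003G138700 (chromosome 3, 15533054 to 15533752) had 40.8 to 77.2 CPM in EE libraries, with 50.3, 34.5 and 32.4 CPM in LM30, 63.2, 49.9 and 44.3 CPM in LM50, and 58.6, 58.5 and 57.7 CPM in LM80. Its EE and LM values overlapped at 30 and 50 % SWCg, and LM80 lay just above EE80. Potri.001G403200 (chromosome 1, 42916026 to 42919290) had 5.42 to 7.59 CPM in EE libraries, with 7.83, 6.04 and 7.08 CPM in LM30, 10.08, 9.40 and 9.29 CPM in LM50, and 8.38, 11.4 and 11.8 CPM in LM80. Its LM30 values overlapped the evening range, whereas all LM50 and LM80 values lay above it.

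**Figure D2:**
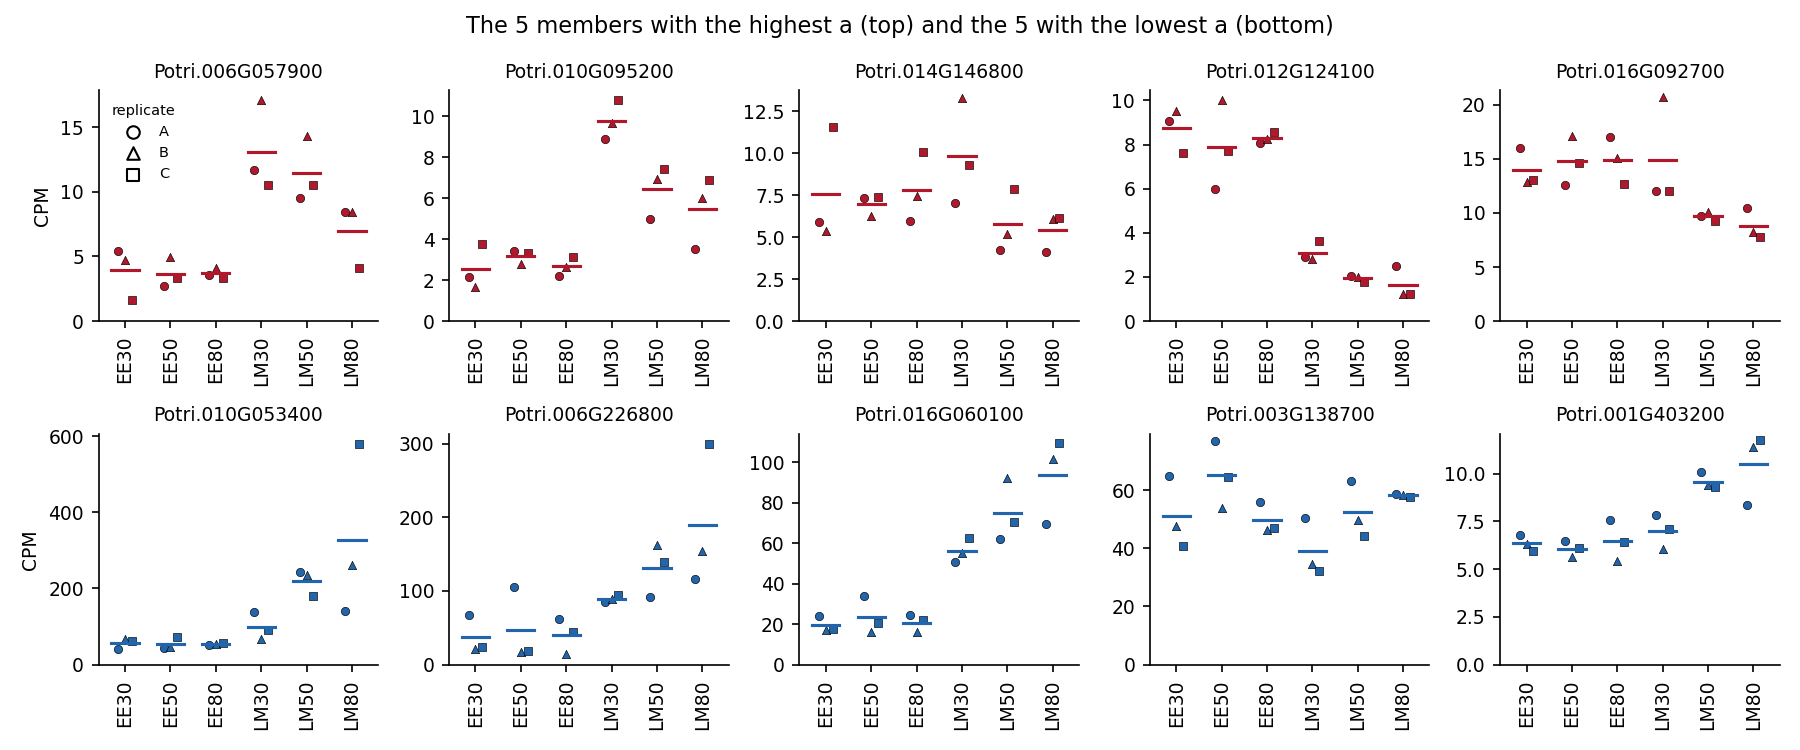
Each panel shows CPM (vertical axis, from 0) of 1 gene in the EE groups (left) and the LM groups (right) at 30, 50 and 80 % SWCg, with replicates A, B and C as circle, triangle and square and a line at the group mean (n = 3). The upper row holds the 5 LM30-high genes with the highest a and the lower row the 5 LM30-low genes with the lowest a. Potri.012G124100 was higher in every EE library than in any LM library, and Potri.016G060100 was lower.

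Over all members, replicate B of LM30 stood apart in the LM30-high set. The mean deviation of these genes from their own mean of all libraries was 0.35 in LM30 B, and −0.06 in LM30 A and in LM30 C. The deviation was −0.28, −0.25 and −0.19 in the LM50 libraries, and −0.36, −0.40 and −0.39 in the LM80 libraries. Over all 15666 genes of 5 to 512 CPM the mean deviation was −0.05 in LM30 B and −0.16 in LM30 A and in LM30 C. Every LM30 library was above every LM80 library for the LM30-high set, which the rule had fixed gene by gene. Every LM30 library was also above every LM50 library, but LM30 A and C lay closer to LM50 C than to LM30 B. LM30 B was the highest LM30 library for 87 of the 100 LM30-high genes, against 58.4 % of the 15666 genes of 5 to 512 CPM. With LM30 B left out the median a of LM30-high genes was 0.31. All 100 stayed positive, which the demand for no overlap had fixed in advance. How far LM30 B accounts for the choice was not tested.

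For LM30-low genes the 3 LM30 libraries lay closer together. Their mean deviation was −0.05, −0.16 and −0.07 in LM30 A, B and C, against 0.14, 0.19 and 0.12 in LM50 and 0.18, 0.25 and 0.26 in LM80. LM30 B was the lowest LM30 library for 55 of the 100, against 24.6 % of the 15666 genes. Without LM30 B the median a was −0.26, and the rule then kept 50 of the LM30-low and 62 of the LM30-high genes. In the evening, the deviations of LM30-low genes were −0.18 to 0.01, and those of LM30-high genes were 0.05 to 0.26. By this scaling the deviations of all 15666 genes were 0.08 to 0.22 in the EE libraries and −0.16 to −0.05 in the LM libraries. The libraries of the 3 evening groups overlapped in both sets.

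**Figure D3:**
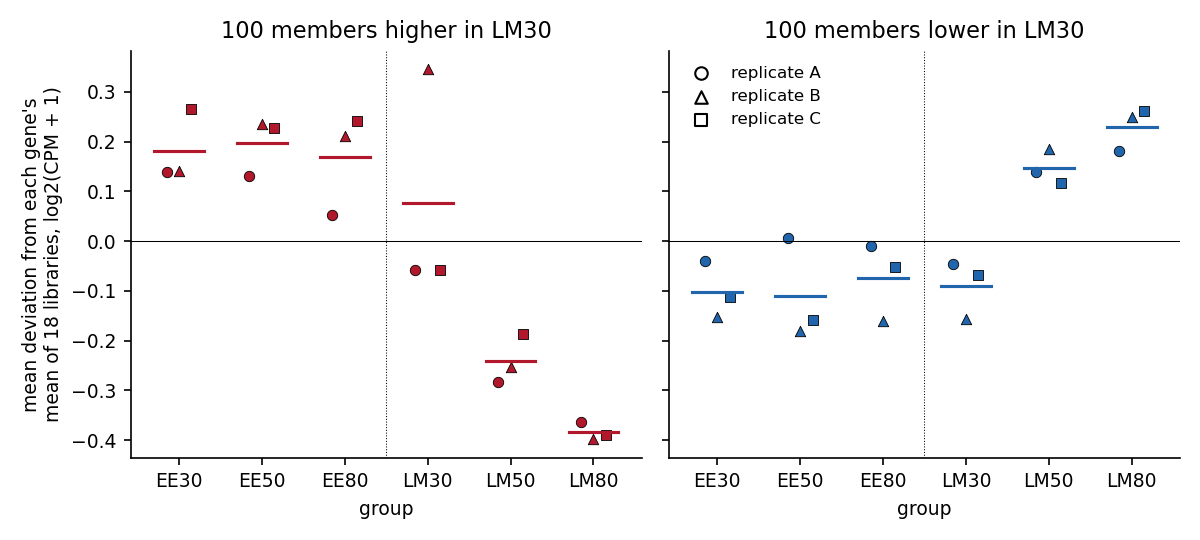
Each point is 1 library, placed by the mean over 100 genes of its deviation from the gene's mean of 18 libraries (vertical axis, log2(CPM + 1)), for LM30-high genes (left panel) and LM30-low genes (right panel). Groups are ordered EE then LM, each at 30, 50 and 80 % SWCg, markers give the replicate and lines the group mean. LM30 B, at 0.35 in the left panel, is far above LM30 A and C at −0.06.

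With edgeR's quasi-likelihood test over 23700 genes, none of the 200 members passed an adjusted p of 0.05 between LM30 and LM80, where 0.0675 % of all genes passed. At an unadjusted p under 0.05 there were 183 members, against 15.1 % of all genes, DESeq2 called 56, against 2.27 %, and the likelihood ratio test with robust dispersion called 51, against 2.93 %. The rule had used these libraries, so nothing is read from these counts. In EE30 against EE80, which the rule kept near 0, edgeR called 0 members, against 1.94 % of all genes. There were 2 members at an unadjusted p under 0.05, against 17.6 % of all genes, and 0 were called by DESeq2, against 4.33 %, and by the robust test, against 6.65 %. The difference of the 30 against 80 % SWCg contrasts between the times was called by edgeR for 0 members and 0 % of genes. At an unadjusted p under 0.05 there were 94 members, against 8.61 % of all genes, and the robust test called 1, against 0.186 %, and DESeq2 0, against 0.135 %. Both contrasts of that difference had been used by the rule too, and nothing is read from its counts.

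The limit on b also depends on how libraries are scaled. With TMM scaling in edgeR, the log2 fold change of EE30 over EE80 was positive in 95 of 100 LM30-high genes (median 0.09) and in 80 of 100 LM30-low genes (median 0.05), where the median of the 15666 genes was 0.02. The median of b itself, by column sum, was 0.01 in LM30-high genes and −0.03 in LM30-low genes.

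At 50 % SWCg in the morning, members lay nearer to LM80 than to LM30. The mean x of LM50 was placed on a scale of 0 at LM80 and 1 at LM30. Its median position was 0.29 in LM30-high genes, with 44 genes under 0.25, 54 between 0.25 and 0.75 and 2 over 0.75. In LM30-low genes the median was 0.23, with 55, 39 and 6 genes in these ranges, and 24 of the 55 were on the far side of LM80. The rule fixed both ends of the scale and left LM50 free, but the position shares the LM30 and LM80 libraries with the rule and is a description. The same holds for the counts of separate values that follow: choosing members on the LM30 and LM80 values itself raises them above the shares of all genes, and nothing is read from the excess.

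LM50 was above LM80 by a median of 0.13 in LM30-high genes, and by 0.02 over all 15666 genes. The LM50 and LM80 values did not overlap, with LM50 above, in 26 of 100 LM30-high genes, against 4.37 % of the 15666. In LM30-low genes the median of LM50 minus LM80 was −0.07, and LM50 lay wholly below LM80 in 7 of 100, against 1.56 %. LM30 lay wholly above LM50 in 46 of 100 LM30-high genes (9.59 % of the 15666) and wholly below it in 63 of 100 LM30-low genes (8.93 %). For LM30 against LM80, where the rule demanded separation, the shares of the 15666 were 10.4 % above and 6.82 % below. edgeR called 0 members and 0 % of genes in LM50 against LM80, with 18 members at an unadjusted p under 0.05, against 1.97 % of all genes, and 0 called by DESeq2 or the robust test, against 0.00422 % in each. In LM30 against LM50 it called 0 members and 0 % of genes, with 102 at an unadjusted p under 0.05, against 11.5 % of all genes, 5 called by DESeq2, against 0.511 %, and 4 by the robust test, against 1.02 %. In the evening, EE50 minus EE80 had a median of 0.03 in LM30-high genes, −0.04 in LM30-low genes and −0.02 over all 15666. edgeR called 0 members there, against 0.0127 % of genes, with 5 at an unadjusted p under 0.05, against 6.38 %, and 0 by DESeq2, against 0.097 %, and by the robust test, against 0.527 %.

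EE50 against LM50 was the comparison least touched by the rule, since these libraries entered it only through the mean level and the limit on the mean difference between times. By column sum the median gene of 5 to 512 CPM was 0.28 higher in EE50 than in LM50, and with TMM it was 0.02 higher. The TMM values are used here, so a change is relative to that middle. Of the LM30-high genes, 42 were called higher and 17 lower in EE50, and 41 were not called. The shares of all 23700 genes were 28.8 % higher and 24.1 % lower, and those of the 15666 genes of the members' range of levels were 31.4 % higher and 29.5 % lower. Of the LM30-low genes, 12 were called higher and 59 lower, and 29 were not called. The median log2 fold change of EE50 over LM50 was 0.18 in LM30-high genes, −0.42 in LM30-low genes and 0.02 over the 15666 genes. It was positive in 64 and negative in 36 LM30-high genes, positive in 22 and negative in 78 LM30-low genes, and positive in 8082 and negative in 7584 of the 15666.

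The counts depended on which libraries had chosen the members, and the difference between the 2 sets was not tested. When the rule was applied without LM30 B, 49 of the LM30-high genes so chosen were called higher in EE50 and 20 lower, and 20 of the LM30-low genes were called higher and 46 lower. Without LM80 A, 44 LM30-high genes were called higher and 15 lower, and 17 LM30-low genes higher and 49 lower. Without EE30 C, 31 LM30-high genes were called higher, near the share of all genes, and 22 lower, and 16 LM30-low genes were called higher and 57 lower. LM30-low genes called lower were thus 46 to 59 of 100 over the 4 choices, against 29.5 % of the 15666 genes. LM30-high genes called higher were 31 to 49, against 31.4 %. The choices are not separate evidence, since they share members and the same EE50 and LM50 libraries. Without LM30 B, LM80 A or EE30 C, 50, 30 or 62 of the LM30-low genes were shared with the main choice. Same-letter libraries of LM50 and LM80 also deviated together (r = 0.333, 0.086 and 0.133). The part of this in the counts was not tested.

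**Figure D4:**
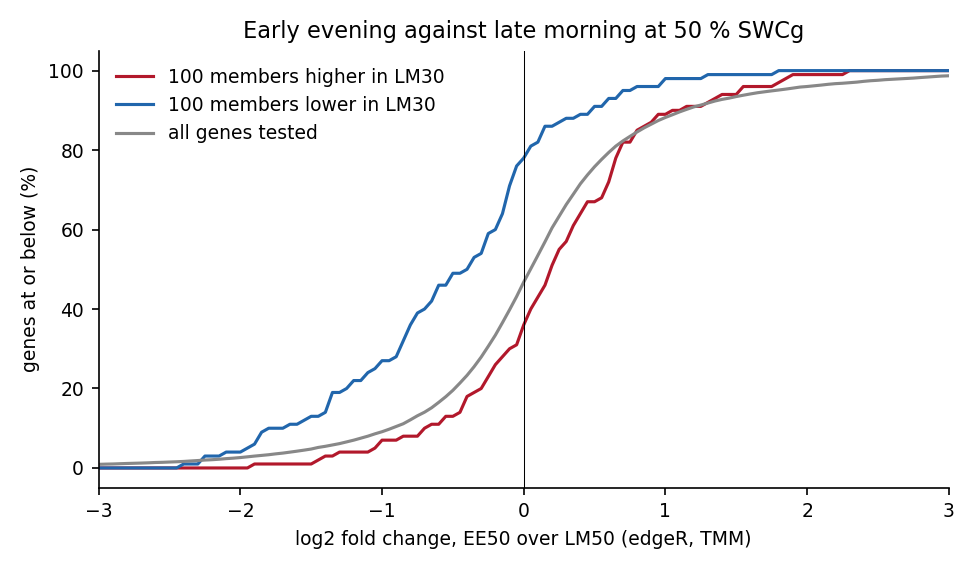
The cumulative share of genes (vertical axis, %) is plotted against the edgeR log2 fold change of EE50 over LM50 (horizontal axis) for LM30-high genes (red), LM30-low genes (blue) and all 23700 genes tested (grey). The blue curve has reached 78 % at 0, the red curve 36 % and the grey curve 46.8 %.

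The LM30-high genes with the largest evening levels relative to morning were led by Potri.012G101600 (chromosome 12, 12453802 to 12455157). It had 12.4, 10.6 and 11.3 CPM in EE50 and 2.07, 1.61 and 2.26 CPM in LM50, a log2 fold change of 2.27 ± 0.15 (adjusted p = 2.19e-09). Values after ± are approximate SEs, the size of the fold change divided by the square root of the F statistic of edgeR's test. They rest on the spread within groups over all 18 libraries, with n = 3 in each group. Potri.001G200000 (chromosome 1, 19842191 to 19848079) had 38.1, 38.7 and 39.9 CPM in EE50 and 7.68, 7.22 and 11.12 CPM in LM50, a log2 fold change of 1.89 ± 0.15 (adjusted p = 2.5e-08). The EE50 and LM50 values of both were far apart, and the evening values lay close together. Potri.007G032800 (chromosome 7, 2558485 to 2565001) had 31.6, 29.0 and 31.6 CPM in EE50 and 7.44, 6.95 and 6.73 CPM in LM50 (log2 fold change 1.85 ± 0.16, adjusted p = 5.63e-08). In LM30 these 3 genes reached 2.62 to 3.10, 10.0 to 12.1 and 7.87 to 14.8 CPM, against 1.77 to 2.15, 7.52 to 8.04 and 6.01 to 7.54 CPM in LM80, all far below their evening levels.

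The members with the smallest ratio of evening to morning were LM30-low genes. Potri.009G122600 (chromosome 9, 10247304 to 10252466) had 22.2, 20.03 and 22.9 CPM in EE50 and 93.1, 104 and 89.6 CPM in LM50, a log2 fold change of −2.42 ± 0.16 (adjusted p = 2.22e-09). Potri.010G035900 (chromosome 10, 6500384 to 6502824) had 5.21, 4.80 and 6.43 CPM in EE50 and 24.4, 22.2 and 18.6 CPM in LM50, a log2 fold change of −2.26 ± 0.12 (adjusted p = 2.29e-10). Neither gene had an evening library near the morning range. Potri.010G053400, described above for its low a, had 44.8, 45.1 and 72.9 CPM in EE50 against 243, 236 and 181 CPM in LM50 (−2.30 ± 0.40, adjusted p = 0.000131).

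Of the other genes with extreme a, Potri.006G057900 (−1.92 ± 0.35, adjusted p = 0.000201) and Potri.010G095200 (−1.30 ± 0.27, adjusted p = 0.000679) were lower in EE50 than in LM50 although they were LM30-high genes. Potri.012G124100 was higher in EE50 (1.75 ± 0.24, adjusted p = 9e-06). Potri.016G060100 (−1.97 ± 0.24, adjusted p = 3.54e-06) and Potri.001G403200 (−0.94 ± 0.15, adjusted p = 6.07e-05) were lower in EE50. Potri.006G226800 was called lower (−1.80 ± 0.64, adjusted p = 0.025), with 105, 17.4 and 18.0 CPM in EE50, and the call was lost without LM50 B, LM50 C, EE50 B or EE50 C, where the adjusted p was 0.0715, 0.051, 0.0991 and 0.1005 in that order. Potri.016G092700 (0.33 ± 0.18, adjusted p = 0.132) and Potri.003G138700 (0.03 ± 0.19, adjusted p = 0.905) were not called, and neither was Potri.014G146800 (adjusted p = 0.9997). At the edge of the rule, Potri.011G125200 (0.16 ± 0.08, adjusted p = 0.0859), Potri.005G156100 (−0.08 ± 0.09, adjusted p = 0.475) and Potri.003G075700 (−0.07 ± 0.08, adjusted p = 0.489) were not called either.

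Members with the same sign of a had different levels over the day when grouped by this comparison. The 42 LM30-high genes called higher in EE50 had median levels of 21.9, 23.8 and 22.1 CPM in EE30, EE50 and EE80 and of 12.4, 10.0 and 8.74 CPM in LM30, LM50 and LM80. The 17 called lower in EE50 had 10.2, 9.06 and 9.78 CPM in the EE groups and 21.6, 14.1 and 12.6 CPM in the LM groups in the same order of water levels. The order of LM30 and LM80 in each set, and the side on which the evening lies, follow from how the sets were formed. The 41 not called had 18.9, 18.1 and 18.9 CPM in the EE groups and 17.9, 14.5 and 12.9 CPM in the LM groups.

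The 59 LM30-low genes called lower in EE50 had medians of 23.7, 23.0 and 23.9 CPM in EE30, EE50 and EE80, and of 38.2, 43.7 and 46.9 CPM in LM30, LM50 and LM80. The 12 called higher had 16.3, 17.8 and 16.7 CPM in the EE groups and 8.73, 10.3 and 10.9 CPM in the LM groups. The 29 not called had 18.7, 18.8 and 19.3 CPM in the EE groups and 13.4, 15.8 and 16.5 CPM in the LM groups. These levels are by column sum too, and the median TMM log2 fold change of the 29 was −0.07. In each of these 6 sets the evening medians of the 3 water levels lay close together, as the rule on b had set for 30 against 80 % SWCg.

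At the other water levels the rule had used the libraries, and the values are given side by side only. In EE80 against LM80, 45 LM30-high genes were called higher and 18 lower in the evening, and 8 LM30-low genes higher and 64 lower, against 27.3 % higher and 24.5 % lower of all genes. In EE30 against LM30, 21 LM30-high genes were called higher and 32 lower, and 29 LM30-low genes higher and 41 lower, against 28.3 % and 25.1 %. The rule with the times exchanged (separate in the evening, within 0.1 in the morning) gave 2016 genes with no overlap of EE30 and EE80, 479 higher and 1537 lower in EE30, against 1032 for the morning. Its 100 highest had EE30 minus EE80 differences of 0.31 to 0.61 and its 100 lowest −1.03 to −0.48. In EE50 against LM50, 64 of that upper set were called higher and 12 lower, and 26 of the lower set were called higher and 37 lower. The split of 479 and 1537 was made by column sum, by which EE30 was above EE80 in 5648 of the 15666 genes and below in 10018. With TMM it was above in 8509 and below in 7157.

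The 2 sets differed in gene length, which the rule did not use. The summed exon length had a median of 2749 bases in LM30-high genes and 1523 bases in LM30-low genes, against 2088 bases for the 15666 genes and 2200.5 bases for the 6620 genes that had met the limit on b. All 793 genes that met the criteria and were higher in LM30 had a median of 2837 bases, and all 239 lower ones 1654 bases. The members thus shared the difference with the genes they were ranked among. Over deciles of the 15666 genes by length, the number of LM30-high genes was 5, 4, 7, 7, 9, 12, 10, 15, 22 and 9 from the shortest to the longest. The number of LM30-low genes was 18, 18, 18, 11, 7, 5, 7, 6, 6 and 4. Length moved with a over all genes too, with a median a of −0.02 in the shortest decile and 0.09 in the longest.

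It also moved with 1 library. The excess of LM30 B over the mean of LM30 A and C had a median of 0.02 in the shortest decile and 0.17 in the longest. Without LM30 B the median a was −0.03 in the shortest decile and 0.03 in the longest. Members chosen without LM30 B had median exon lengths of 2399 bases (LM30-high) and 1517.5 bases (LM30-low). The part of length and of this library in the choice of members was not tested. In EE50 against LM50, LM30-low genes called lower made up 52.5, 72.7 and 63.2 % of those among the shortest, middle and longest genes (3 classes of equal size among the 15666), against 26.4, 29.9 and 32.1 % of all genes in these classes. LM30-high genes called higher made up 47.4, 38.7 and 42 %, against 32.1, 32.4 and 29.6 %. These shares rest on 59, 22 and 19 LM30-low genes and on 19, 31 and 50 LM30-high genes in the 3 classes. Their differences from the shares of all genes, and any part of length in the calls, were not tested.

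**Figure D5:**
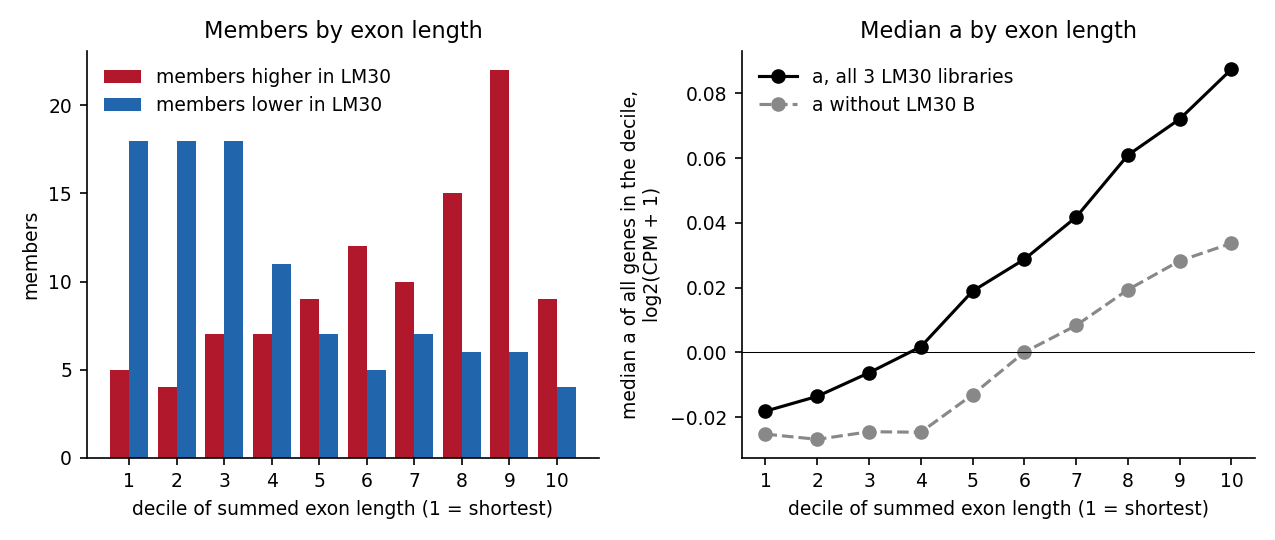
The horizontal axes give the decile of the 15666 genes of 5 to 512 CPM by summed exon length, from shortest (1) to longest (10). The left panel counts LM30-high (red) and LM30-low (blue) genes per decile, and the right panel gives the median a of all genes in log2(CPM + 1) with all libraries (black) and without LM30 B (grey). The black line runs from −0.02 to 0.09 and the grey line from −0.03 to 0.03.

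Members lay on all 19 chromosomes, with 22 on chromosome 6, 21 on chromosome 1 and 16 on chromosome 16, which hold 7.94, 12.1 and 3.50 % of the 15666 genes. Chromosome 4 (5.53 % of the 15666) held 6 LM30-low genes and no LM30-high gene. Chromosome 11 (3.51 %) held 9 LM30-high genes and 1 LM30-low gene, and chromosome 12 (3.47 %) held 3 LM30-high genes and no LM30-low gene. With few members per chromosome, nothing is read from these splits. There were 11 pairs of members on a chromosome with less than 100000 bases between them, and 5 of these had no other counted gene between them. How many such pairs as many other genes would give was not counted, so nothing is read from the number. Potri.010G003700 (chromosome 10, 339563 to 340816) and Potri.010G003800 (341374 to 342411), 557 bases apart, were both LM30-low genes. Potri.008G181200 (chromosome 8, 12497549 to 12503425) and Potri.008G181300 (12504912 to 12507282), 1486 bases apart, were both LM30-high genes. Potri.007G050700 (chromosome 7, 4926934 to 4930440) was an LM30-low gene and its neighbour Potri.007G050800 (4937669 to 4941999) an LM30-high gene, so adjacent members did not always share a direction.

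Exons of 8 members overlapped those of another gene, 7 of them on the other strand. These were 5 of 100 LM30-high and 3 of 100 LM30-low genes, against 6.25 % of the 15666. The counting did not use strand, so strand did not tell reads in the shared exons apart, and their part in the counts was not tested. The 8 members were the LM30-high genes Potri.006G010700, Potri.016G114600, Potri.011G010400, Potri.015G008000 and Potri.009G120700 and the LM30-low genes Potri.001G128200, Potri.001G304100 and Potri.003G009300, the last on the same strand. Reads that mapped to several places were not counted, which can lower the values of members with a near-identical copy. None of the 18 genes described singly above was among the 8.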

How the data were processed

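The authors trimmed single-end reads with Trimmomatic, aligned them with HISAT2 2.2.1 to the P. trichocarpa v4.1 genome, and counted them per gene with featureCounts 2.0.1 without strand. The deposited values are raw counts in 18 columns, 1 per library. CPM used column sums, and x was log2(CPM + 1). The members, the lists and the tests were chosen with earlier results of these data known. The 23700 genes whose average log2 CPM lay between −2 and 9 were fitted in R 4.3.3 with edgeR 4.0.16 (TMM, quasi-likelihood test, 1 model of 6 groups, Benjamini–Hochberg adjustment, called under 0.05), after a run on simulated data. DESeq2 1.42.0, a robust likelihood ratio test and other settings were alternatives. Descriptions used Python 3.11.15 and pandas 2.3.3. Genes described singly were the 5 highest and 5 lowest by a, those at the rule's edge, and the 3 largest and 3 smallest fold changes among members called in EE50 against LM50. Neighbours and overlaps were described after their values were seen. Without gene names here, planned lists by function, leaf markers and promoter motifs were not run, so leaf identity was not checked. Same-letter libraries of EE30 and EE80 deviated together from their group means (r = 0.205, 0.196 and 0.376 over genes). The values were also positive for EE50 and EE80 (0.173, 0.183, 0.070). The same held for LM50 and LM80 (0.333, 0.086, 0.133) and for LM30 and LM50 (0.130, 0.032, 0.159). Letters may thus pair libraries in these comparisons, and the fit above has no block. A fit with the letter as a block was an alternative. Libraries of EE50 and LM50 (−0.003, −0.016, −0.025) and of LM30 and LM80 (0.070, −0.111, 0.120) did not all deviate together by letter.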

Additional observations from a re-analysis of the deposited data

How the results depend on the processing

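Of the alternative values of the main results, 253 stayed the same and 19 moved. A count stayed the same if it was equal to the main count, as with 0 against 0, or within 1.5 times of it. A median stayed the same if it differed from the main median by less than the SD of the medians from single libraries. For LM30 against LM80, members called numbered 0 with edgeR, 56 with DESeq2, 51 with the robust likelihood ratio test and 16 with the replicate block, where letters were not shown to pair libraries. Leaving out 1 library gave 0 to 17, with 17 without LM80 A and 1 without EE30 C. Over all genes that contrast had 4 higher and 12 lower calls with edgeR, 206 and 332 with DESeq2, 300 and 394 with the robust test, 123 and 133 with the block, 29 and 142 without LM80 A and 0 without LM30 B or LM80 B. EE30 against EE80 had 196 higher and 264 lower calls with edgeR, 457 and 569 with DESeq2, 694 and 882 with the robust test and 341 and 398 with the block, and the block called 0 members there. Without 1 library that contrast had 18 and 44 (without EE80 A) to 364 and 374 calls (without LM30 B). DESeq2 and the robust test also called genes where edgeR called 0 to 3, with 13 higher and 19 lower, and 26 and 18, for the difference between times, 33 and 88, and 98 and 143, for LM30 against LM50, and 4 and 19, and 33 and 92, for EE50 against EE80. The difference between times had 1 member with the robust test, and LM30 against LM50 had 5 with DESeq2 and 4 with the robust test. The cause was not tested.

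Applying the rule again kept 133 of the 200 members with TMM library sizes, 111 with a limit of 0.05 on b, 97 with a limit of 0.2, 190 with a pseudocount of 0.5 and 152 with one of 5. Without 1 library it kept 86 (without LM80 A) to 150. The median LM50 minus LM80 of LM30-low genes was −0.10 with TMM, and the median EE50 minus EE80 of LM30-high genes was −0.032 to 0.053 without 1 library, against 0.03 with all, turning negative without EE80 A. In EE50 against LM50, LM30-high genes called higher numbered 37 to 43 and LM30-low genes called lower 57 to 59 over the other tests, scalings, filter and block, and 35 to 43 and 51 to 60 without 1 library. Members chosen with TMM gave 46 and 61, a choice added after the data were seen, as were those without LM30 B, LM80 A or EE30 C. The replicate block changed no other count of members called by over 1.5 times. Over all genes the calls of EE30 against EE80 rose with it, as given above.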
